A study of Mus musculus with 4 samples.

Results

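C-type lectins are cell-surface and secreted proteins that share a carbohydrate-recognition fold, and 37 of the 31053 genes listed for both libraries carry a Clec or Cd209 symbol. They were chosen by their symbols, and the 26 with at least 20 unique molecular identifiers (UMIs, 1 count per captured molecule) over both libraries were measured in 10 myeloid classes. The other 11 fell below that minimum, and 5 of them, Clec4f, Clec2h, Clec2e, Clec18a and Clec3a, had 0 UMIs. The measured genes nearest the minimum were Clec2g with 28 UMIs, Clec2l with 29 and Clec11a with 38. The nearest below it were Cd209f with 11, Clec3b with 6 and Clec12b with 4, followed by Clec4b2 and Clec14a with 3 each and Cd209g with 2. The rule used symbols and summed UMIs and no ratio between the libraries.

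The leukocytes came from subcutaneous B16 melanomas, a transplanted mouse tumour line, taken on day 12 from male C57BL/6 mice that were labelled either ATPIF1 knock-out (KO) or wild-type (WT). ATPIF1 encodes a small protein that blocks the ATP synthase of mitochondria. The labels give n = 6 without saying whether that is per genotype, and suspensions of all mice of 1 genotype were mixed before leukocytes were sorted on CD45, so each genotype is 1 pooled library prepared with 10x 5′ chemistry. The labels do not state how the knock-out was made. With 1 library per genotype there is no replicate: differences between KO and WT carry no test, and every interval below is an exact 95% interval that covers counting error only. A difference between the genotypes, between the pools of mice and between the library preparations cannot be told apart.

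C-type lectin receptors of myeloid cells read glycans and glycolipids of microbes, and some read products of dead or damaged cells. Activating members signal through immunoreceptor tyrosine-based motifs, mostly on the partner chain FcR gamma, to the kinase Syk and the Card9, Bcl10 and Malt1 complex. Inhibitory members carry a tyrosine-based inhibitory motif that recruits phosphatases. Others are endocytic receptors that hand antigen to dendritic cells, and a few serve as ligands for receptors of natural killer cells.

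After the filters of at least 1000 UMIs, at least 500 genes and at most 10% mitochondrial UMIs, 3211 KO cells and 4370 WT cells remained, with medians of 4266 and 4314.5 UMIs per cell. The 10 classes held 1805 KO and 2842 WT cells, gated on marker genes that included no Clec or Cd209 gene. They were cDC1 and cDC2, the main conventional dendritic cell subsets (230 KO and 135 WT cells, and 248 KO and 317 WT cells), migratory dendritic cells with Ccr7 and Fscn1 (95 KO and 163 WT cells), plasmacytoid dendritic cells or pDC (19 KO and 87 WT cells) and Ly6c2 monocytes (171 KO and 282 WT cells). Macrophages with C1q genes were divided into an Ear2 Retnla class (97 KO and 56 WT cells), a Ccl8 Cbr2 class (194 KO and 353 WT cells), an Arg1 Mmp12 class (305 KO and 421 WT cells) and the remainder, called other C1q macrophages (418 KO and 498 WT cells). Neutrophils numbered 28 KO and 530 WT cells with medians of 1442.5 and 1777.5 UMIs, so KO values for neutrophils and pDC rest on few cells. These values are ranked with those of the other classes for levels, and kept apart in the comparison of KO with WT. The libraries shared 29 cell barcodes. The tag of the targeted gene, Atpif1, was present under both labels, between 252 and 1154 CPM in the 10 KO classes and between 156 and 987 CPM in the 10 WT classes; a 5′ tag can lie outside a deleted part, so this does not check the label, and KO below means the library labelled KO.

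The classes carried their own marker lists in both libraries, sums that the gating partly fixed because the lists hold the gate markers. The cDC1 list summed to 4949 CPM, the UMIs of a gene scaled to a common total of all UMIs of the class, in KO cDC1 and 4548 CPM in WT cDC1, the Arg1 Mmp12 list to 11715 and 15649 CPM in its class, and the neutrophil list to 67817 and 106075 CPM in neutrophils. The cDC2 list was less specific, with 13740 CPM in KO cDC2 and 12962 CPM in WT cDC2 against 9897 and 10157 CPM in cDC1. Levels below are CPM of 5′ tags, which count molecules and do not scale with gene length.

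Of the 26 measured members, 17 lie on chromosome 6 and 6 on chromosome 8. A run of 9 Clec4 genes occupies 368.024 kb of chromosome 6 (GRCm38, mm10), from position 122921848 to 123289871, in the order Clec4a1, Clec4a3, Clec4a4, Clec4b1, Clec4a2, Clec4b2, Clec4n, Clec4d and Clec4e. The genes at its ends had different patterns over the classes, as described below, and the windows around the starts of 2 genes from each end are shown to set them side by side. The sequences are RefSeq promoters of build GRCm38.p6, running from 250 bases before to 50 bases after the start of the gene and written 5′ to 3′ on the gene's own strand. Clec4d lies at chr6:123261857-123262156 on the plus strand, Clec4e at chr6:123289822-123290121 on the minus strand, Clec4a1 at chr6:122921598-122921897 and Clec4a3 at chr6:122952265-122952564, both on the plus strand. Capitals mark matches to 1 of the 5 motifs spelled out after the sequences.
Clec4d: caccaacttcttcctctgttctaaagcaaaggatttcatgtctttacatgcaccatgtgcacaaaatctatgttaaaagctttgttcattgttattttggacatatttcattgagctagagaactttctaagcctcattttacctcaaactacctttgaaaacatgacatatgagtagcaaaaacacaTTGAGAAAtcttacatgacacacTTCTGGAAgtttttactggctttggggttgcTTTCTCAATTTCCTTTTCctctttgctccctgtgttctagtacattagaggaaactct
Clec4e: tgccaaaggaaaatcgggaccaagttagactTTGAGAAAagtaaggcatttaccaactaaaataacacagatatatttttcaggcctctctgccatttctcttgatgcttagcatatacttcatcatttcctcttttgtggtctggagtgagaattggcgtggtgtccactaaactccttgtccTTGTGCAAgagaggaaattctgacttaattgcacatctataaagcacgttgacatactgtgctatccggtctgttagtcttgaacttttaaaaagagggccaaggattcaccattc
Clec4a1: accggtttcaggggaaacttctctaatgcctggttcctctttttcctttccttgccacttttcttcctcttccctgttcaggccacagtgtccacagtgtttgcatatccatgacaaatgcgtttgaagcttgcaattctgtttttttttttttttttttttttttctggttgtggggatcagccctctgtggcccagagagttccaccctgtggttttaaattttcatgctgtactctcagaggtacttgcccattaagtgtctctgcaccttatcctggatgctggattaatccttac
Clec4a3: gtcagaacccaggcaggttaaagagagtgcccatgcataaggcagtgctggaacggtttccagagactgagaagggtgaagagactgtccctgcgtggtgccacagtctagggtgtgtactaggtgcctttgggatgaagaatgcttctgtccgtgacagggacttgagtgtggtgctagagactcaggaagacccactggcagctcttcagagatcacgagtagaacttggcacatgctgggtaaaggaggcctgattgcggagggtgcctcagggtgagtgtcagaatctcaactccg

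A RefSeq promoter was matched for 22 of the 26 measured members, and 32851 promoters of the same length form the background. The letters searched on both strands were TTNNGNAA for a C/EBP-type motif, GAGGAAGT for a PU.1-type ETS motif, TGANTCA for AP-1, a pair of GAAA runs parted by any 2 bases for an interferon-stimulated response element and GGG, any 2 bases and TTTCC for an NF-kB-type motif; matches may overlap. The C/EBP-type letters matched 3 times at Clec4d and 2 times at Clec4e, and not at Clec4a1 or Clec4a3. Among the other measured genes of the run they matched 2 times at Clec4a2 and not at Clec4b1. Clec4n and Clec4a4 had no matched promoter. Outside the run, Clec12a and Cd209b held 4 matches each. These letters were present in 14 of the 22 member promoters and in 40.7% of all promoters. Clec4d also held 1 match to the interferon-stimulated letters, which 3 members and 3.44% of all promoters held. The AP-1 letters matched in 3 members against 7.81% of all promoters, the NF-kB-type letters in 1 member against 1.63%, and the PU.1-type letters in 0 members against 3.2%. A match describes letters in this window and not a bound site.

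Clec4d and Clec4e, activating receptors at the far end of the run, were highest in neutrophils, and Clec4n, beside them, was highest in neutrophils in KO and in Arg1 Mmp12 macrophages in WT. Clec4d, which pairs with Clec4e and binds mycobacterial glycolipid, had 1474 CPM (1191 to 1803) in KO neutrophils and 1586 CPM (1516 to 1658) in WT neutrophils. In Arg1 Mmp12 macrophages it had 544 and 694 CPM, in Ccl8 Cbr2 macrophages 281 and 358 CPM and in monocytes 252 and 333 CPM. Neutrophils led Arg1 Mmp12 macrophages by 1.44 on the log2 scale in KO (1.12 to 1.74) and by 1.19 in WT (1.11 to 1.28), so the first place lay beyond counting error in each library. It was the most abundant C-type lectin transcript of neutrophils, with 37.8% of all member UMIs in KO and 42.3% in WT.

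Clec4e, known as Mincle, a receptor for trehalose glycolipids and for a nuclear protein released by dying cells, had 800 CPM in KO neutrophils and 1337 CPM in WT neutrophils. Monocytes were second in both libraries, with 331 and 371 CPM, ahead of Arg1 Mmp12 macrophages with 231 and 287 CPM. Ccl8 Cbr2 macrophages, which followed Arg1 Mmp12 macrophages for Clec4d, had only 53.6 and 44.8 CPM of Clec4e. Clec4n, the receptor for fungal mannans also named Dectin-2, had 611 CPM in KO neutrophils and 374 CPM in WT neutrophils, against 363 and 527 CPM in Arg1 Mmp12 macrophages. The leading class of Clec4n therefore differed between the libraries, with the KO neutrophil value resting on 39 UMIs in 14 cells. Clec4n had 240 and 268 CPM in other C1q macrophages, 196 and 167 CPM in Ear2 Retnla macrophages, 131 and 150 CPM in Ccl8 Cbr2 macrophages and 158 and 228 CPM in cDC2.

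For Clec4d, the share of cells with a UMI was also higher in neutrophils than in Arg1 Mmp12 macrophages once each cell was thinned to 1000 UMIs. Clec4d was found in 60.7% of KO neutrophils (40.6 to 78.5) and 74.3% of WT neutrophils (70.4 to 78.0), and in 35.1% and 45.8% of Arg1 Mmp12 macrophages; unthinned, the shares in neutrophils were 78.6% and 86.0%. T or NK cells, which lack the gene and had median depths of 2246 UMIs in KO and 2686 UMIs in WT, gave 0.996% and 1.46% after thinning. Clec4e was found in 67.9% of KO neutrophils and 56.4% of WT neutrophils, against 0.697% and 0.795% of T or NK cells. Droplets without a cell also held the transcripts: Clec4d had 133 CPM in empty droplets of KO and 322 CPM in those of WT, and Clec4e had 90.8 and 195 CPM.

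**Figure D1:**
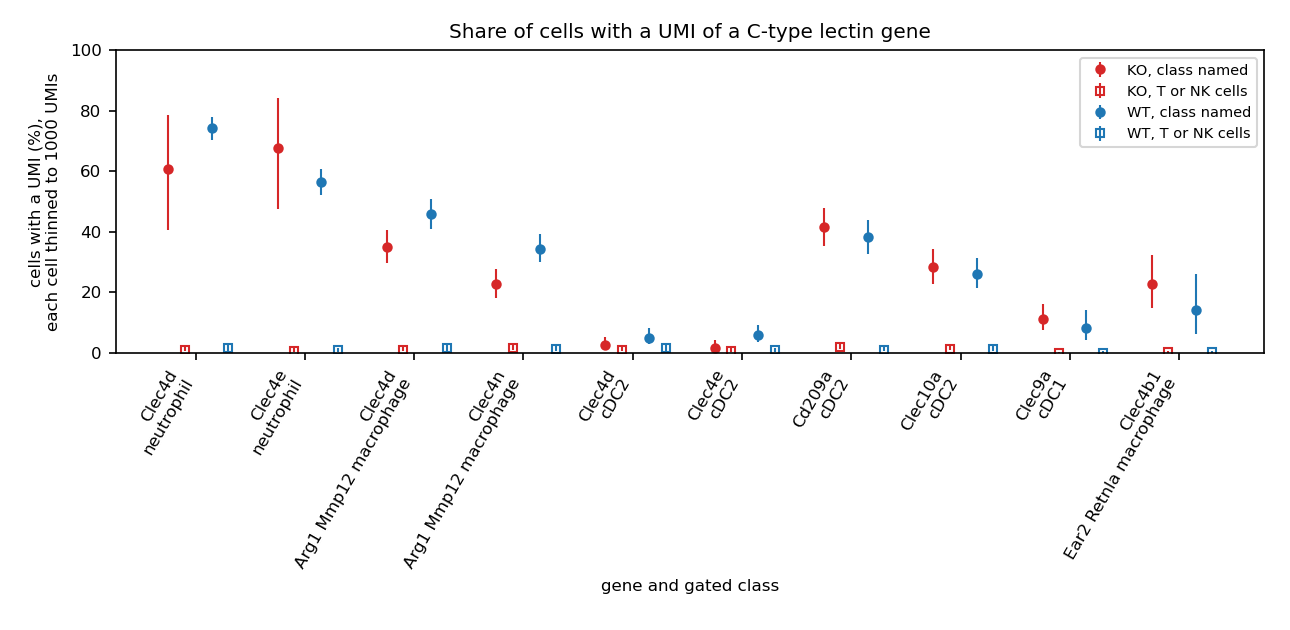
Share of cells (%) with at least 1 UMI of a gene after thinning each cell to 1000 UMIs, for the class named under each position (filled circles) and for T or NK cells as background (open squares), KO in red to the left of WT in blue, with exact 95% binomial intervals. Clec4d in cDC2 lies at 2.42% in KO and 5.05% in WT, against T or NK shares of 0.996% and 1.46%, and Clec4d in neutrophils reaches 60.7% in KO and 74.3% in WT.

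Clec4a1 and Clec4a3, at the near end of the run, were higher in macrophages and monocytes than in neutrophils. Clec4a1 had 244 CPM (226 to 263) in KO and 261 CPM (246 to 277) in WT other C1q macrophages, with Ccl8 Cbr2 macrophages next at 234 and 210 CPM, and 31.4 and 22.3 CPM in neutrophils. In KO the first and second places of Clec4a1 did not differ beyond counting error (0.06 on the log2 scale, -0.13 to 0.26). Clec4a3 had 280 and 216 CPM in other C1q macrophages, 251 and 219 CPM in monocytes, 218 and 164 CPM in Ccl8 Cbr2 macrophages and 178 and 222 CPM in Ear2 Retnla macrophages; its leading class was other C1q macrophages in KO and Ear2 Retnla macrophages in WT. Clec4a2, an inhibitory receptor with a tyrosine-based inhibitory motif, was broad, from 186 to 291 CPM in KO and from 184 to 360 CPM in WT over monocytes and the macrophage classes. Its highest value was in Ear2 Retnla macrophages in both libraries, and neutrophils had 188 CPM in KO, from 12 UMIs, and 44.6 CPM in WT. Clec4a1, Clec4a2, Clec4a3, Clec4b1 and their neighbours are close paralogs, so reads shared between copies could move counts among them.

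Clec4b1, an FcR gamma-coupled activating receptor of mouse dendritic cells and monocytes, had 1 clear leading class. It had 240 CPM (209 to 275) in KO and 310 CPM (269 to 355) in WT Ear2 Retnla macrophages, and other C1q macrophages came second with 127 and 123 CPM. The first class exceeded the second by 0.92 on the log2 scale in KO (0.66 to 1.17) and by 1.33 in WT (1.09 to 1.57). Clec4b1 was at 20.6 and 16.2 CPM in Arg1 Mmp12 macrophages and at 0 UMIs in KO and 5.78 CPM in WT neutrophils, where Clec4d was at its highest. Clec4a4, an inhibitory relative of Clec4a2 in dendritic cells, had at most 4.13 CPM in any KO class and 4.44 CPM in any WT class, both in cDC2. Clec4b2 fell below the minimum.

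**Figure D2:**
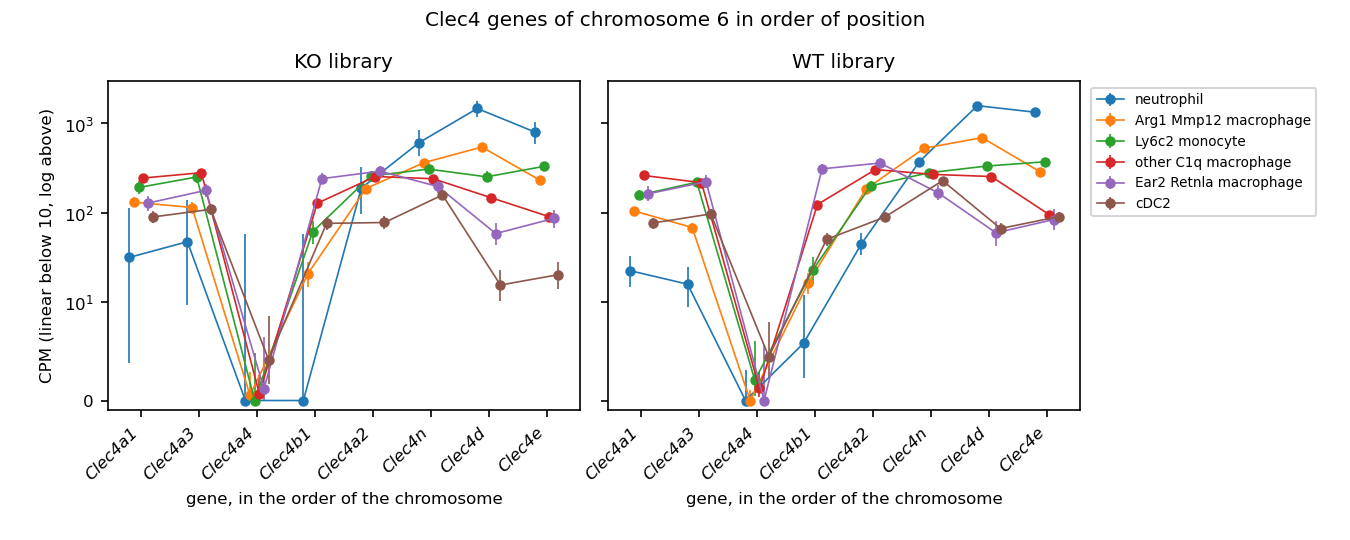
Level (CPM, linear below 10 and logarithmic above) of 8 Clec4 genes in the order of chromosome 6, in KO (left) and WT (right), for 6 classes; bars are exact 95% counting intervals and lines only join the values of 1 class. In both libraries neutrophils are below the other classes at Clec4a1 and Clec4a3 and above them at Clec4d and Clec4e.

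Across the 10 classes the genes within each end of the run correlated more closely than Clec4d did with Clec4a3 or Clec4b1. The Pearson correlation of log2(CPM + 10) between Clec4a1 and Clec4a3 was 0.99 in KO and 0.97 in WT, and between Clec4d and Clec4e it was 0.87 and 0.83. Clec4d and Clec4a3 gave 0.40 and 0.33, and Clec4d and Clec4b1 gave -0.06 and 0.05. Clec4e and Clec4n were not compared with Clec4a1 or Clec4a3. Each correlation is a description over 10 classes of 1 library that share its free RNA and its gates.

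Clec12a, an inhibitory receptor that senses uric acid crystals, had a pattern of its own. It was highest in pDC in KO, at 273 CPM, with other C1q macrophages at 224 CPM, while in WT other C1q macrophages had 169 CPM and pDC 158 CPM; the first and second classes did not differ beyond counting error in either library. It had 161 and 124 CPM in Ear2 Retnla macrophages, 165 and 121 CPM in Ccl8 Cbr2 macrophages and 104 and 91.5 CPM in cDC1. KO neutrophils had 0 UMIs of Clec12a among 28 cells, with an upper limit of 57.8 CPM, and WT neutrophils had 47.9 CPM, so a difference was not detectable at this depth. Clec5a, an activating receptor coupled to the adaptor Tyrobp, stayed low everywhere, with its highest values in neutrophils at 94.1 CPM (34.5 to 205) in KO and 53.7 CPM (41.4 to 68.4) in WT.

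The lectins used as dendritic cell receptors differed in their leading subset. Clec9a, which binds actin filaments exposed by dead cells and serves cross-presentation, had 148 CPM (133 to 165) in KO cDC1 and 117 CPM (100.5 to 136) in WT cDC1, found in 60.9% and 60.7% of the cells before thinning and 11.3% and 8.15% after. pDC came second with 141 and 58.6 CPM, a difference from cDC1 within counting error in KO (0.07, -0.70 to 0.95) and beyond it in WT (1.00, 0.40 to 1.65). cDC2 had 12.4 and 9.68 CPM, and no macrophage or monocyte class exceeded 4.64 CPM in KO or 0.577 CPM in WT. T or NK cells had 2.44 and 0.810 CPM. Clec12a was the other member above 90 CPM in cDC1 of both libraries.

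Cd209a, a mouse relative of human DC-SIGN, was the leading C-type lectin transcript of cDC2. It had 891 CPM (846 to 937) in KO cDC2 and 764 CPM (730 to 800) in WT cDC2, was found in 41.5% and 38.2% of thinned cells, and took 38.7% and 34.2% of all member UMIs of the class. In WT the next class, Ear2 Retnla macrophages, was 3.36 lower on the log2 scale (2.95 to 3.80). That WT value came from 49 UMIs in 6 cells, with 57.1% of the UMIs in 1 cell. In KO the second value, 517 CPM in neutrophils, came from 33 UMIs of a single cell, and the 344 CPM of KO B cells likewise came from 27 UMIs of 1 cell. Thinned T or NK cells gave shares of 1.99% in KO and 1.06% in WT.

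The relatives of Cd209a pointed to the same class at lower levels. Cd209d had 100 CPM (85.8 to 117) in KO cDC2 and 134 CPM (120 to 149) in WT cDC2, and pDC had 30.3 and 120 CPM, so that in WT cDC2 and pDC did not differ beyond counting error. Cd209c had 60.2 and 45.2 CPM in cDC2 and at most 10.1 CPM in any other KO class and 7.59 CPM in any other WT class. Cd209e had 9.44 and 11.3 CPM in cDC2. Cd209b, with 41 UMIs in all, was highest in cDC2 in KO at 5.90 CPM and in migratory dendritic cells in WT at 3.88 CPM. The Cd209 genes are close copies, and the split of reads among them is uncertain.

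Clec10a, a receptor for galactose and N-acetylgalactosamine, shared the cDC2 peak but not the pDC pattern of Cd209a. It had 501 CPM (468 to 536) in KO cDC2 and 423 CPM (398 to 449) in WT cDC2, and pDC were second with 283 and 250 CPM, where Cd209a had 30.3 and 63.1 CPM. Clec10a also held 91.7 and 85 CPM in Ear2 Retnla macrophages. Over the 10 classes Cd209a and Clec10a gave a correlation of 0.31 in KO and 0.78 in WT, and the KO value contains the neutrophil level that came from 1 cell.

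Clec2d and Clec2i are ligands for NK cell receptors of the Nkrp1 family rather than pattern receptors. Clec2d was led by pDC in KO (252 CPM, 163 to 373, against 106 CPM in WT pDC), and migratory dendritic cells, which led in WT, had 190 CPM (157 to 230) in KO and 178 CPM (153 to 205) in WT. It was the first C-type lectin transcript of migratory dendritic cells, with 28.6% and 25.8% of member UMIs, and was also present in T or NK cells at 101 and 80.2 CPM. Clec2i had 131 CPM (69.9 to 224) in KO pDC and 45.1 CPM (27.6 to 69.7) in WT pDC and 25.4 and 25.0 CPM in cDC2.

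The remaining measured members were rare. Clec16a, which despite its symbol encodes an endolysosomal protein, stayed at or below 3.54 CPM in KO classes and 4.86 CPM in WT classes. Clec11a, a secreted growth factor, reached 1.73 and 2.82 CPM, and Clec2g reached 1.55 and 1.73 CPM. Clec1a reached 1.29 and 9.08 CPM, and Clec2l 2.32 and 4.75 CPM. Clec1b, the podoplanin receptor of platelets, reached 15.7 CPM in KO from 1 UMI in neutrophils and 6.77 CPM in WT pDC, and Clec4g, an endothelial lectin of liver and lymph node, reached 15.7 CPM from 1 UMI in KO neutrophils and 11.3 CPM in WT pDC.

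Summed over all members, neutrophils carried the most C-type lectin transcript, 3903 CPM in KO and 3750 CPM in WT. cDC2 followed with 2303 and 2233 CPM, and monocytes had 2045 and 1817 CPM, other C1q macrophages 1834 and 1860 CPM and Arg1 Mmp12 macrophages 1804 and 2060 CPM. cDC1 had 688 and 470 CPM and migratory dendritic cells 667 and 689 CPM, which compares with 324 and 300 CPM in T or NK cells. Of the 13 members that reached 100 CPM in a class of at least 50 cells, 9 had the same leading class in both libraries, and 12 did so among the 8 classes with at least 50 cells in each library.

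**Figure D3:**
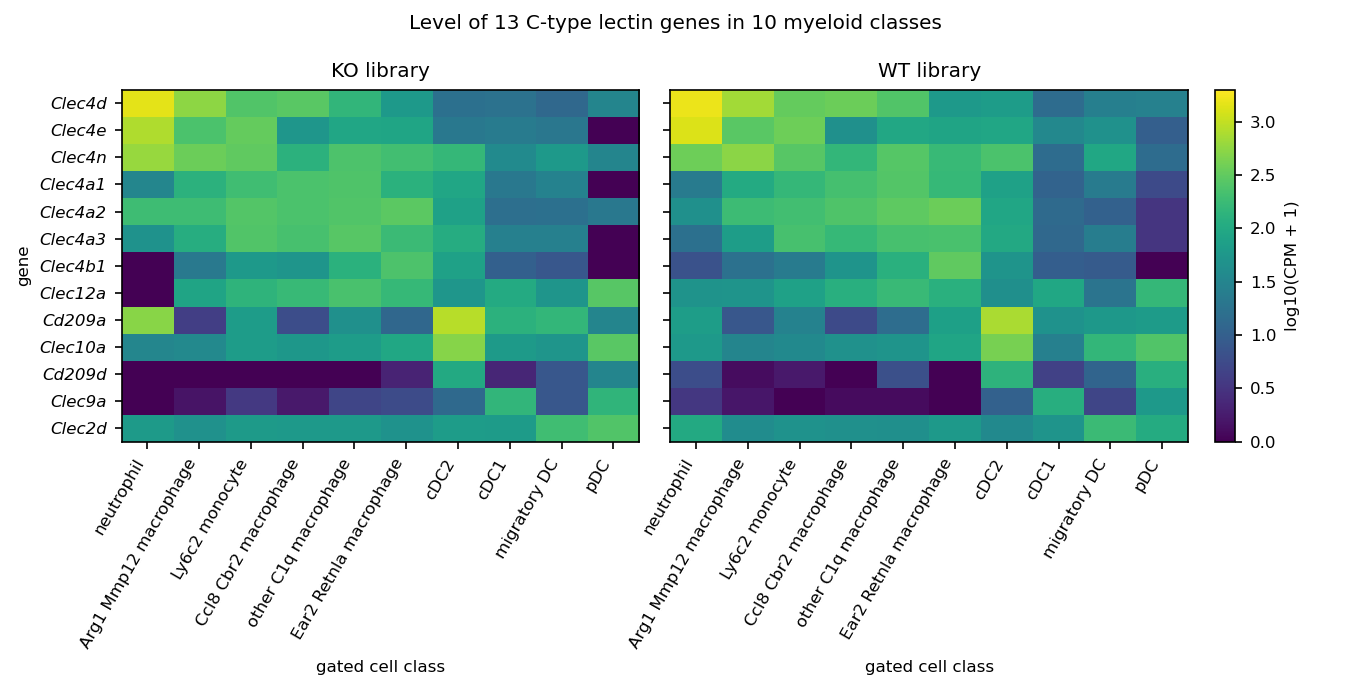
Level as log10(CPM + 1) of the 13 members that reached 100 CPM, in the 10 classes, KO on the left and WT on the right. Clec4d and Clec4e are brightest in neutrophils, Cd209a and Clec10a in cDC2 and Clec9a in cDC1; the bright Cd209a cell of KO neutrophils comes from 1 cell.

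For KO against WT, each member with at least 20 UMIs in a class over both libraries was compared there, which gave 107 pairs of member and class in the 8 larger classes. At a fold of 1.5, 18 pairs were higher in KO and 12 lower, and the interval left out 0 in 16 and 9 of them. The shares of all genes past that fold are set beside the counts. In cDC1, 5 of 13 members were higher and 0 lower, where 9.99% of all genes were higher and 6.96% lower; the median log2 ratio was 0.34 over the members and 0.04 over all genes. In monocytes, 4 of 12 were higher and 0 lower, with 13.9% and 11.7% of all genes and medians of 0.32 and 0.04. In cDC2, 2 of 18 were higher and 3 lower, with 8.3% and 9.35% of all genes. In migratory dendritic cells, 2 of 10 were higher and 3 lower, with 11% and 14.2% of all genes. The cDC1 gate markers, Xcr1, Tlr3, Itgae, Ifi205, Gcsam and Snx22, summed to 1301 CPM in KO cDC1 and 1155 CPM in WT cDC1. They summed to 81.4 and 33.9 CPM in cDC2, 49.1 and 17.1 CPM in monocytes and 18.3 and 19.5 CPM in T or NK cells. The part of this gate in the cDC1 counts was not tested.

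In Arg1 Mmp12 macrophages, 3 of 13 members were higher and 1 lower, with 12.3% of all genes higher and 8.04% lower. In other C1q macrophages, 1 of 15 was higher and 3 lower, with 7.58% and 8.39%. In Ccl8 Cbr2 macrophages, 1 of 13 was higher and 1 lower, with 8.6% and 11.4%, and in Ear2 Retnla macrophages 0 of 13 were higher and 1 lower, with 12.7% and 9.77%. The median over members lay between -0.25, in Ear2 Retnla macrophages, and 0.15 in these 4 classes, against -0.05 to 0.11 over all genes.

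Clec4d and Clec4e were lower in KO cDC2, each with UMIs in 20 KO cells. Clec4d had 15.3 CPM (10.0 to 22.5, 26 UMIs in 20 cells) in KO cDC2 and 66.2 CPM (56.4 to 77.1, 164 UMIs in 51 cells) in WT cDC2, a log2 ratio of -2.11 (-2.77 to -1.51). Clec4e had 20.1 and 89.9 CPM and a log2 ratio of -2.17 (-2.73 to -1.64). After thinning, Clec4d was found in 2.42% of KO cDC2 (0.893 to 5.19) and 5.05% of WT cDC2 (2.91 to 8.07), intervals that overlap each other and, in KO, that of T or NK cells. Neutrophil transcripts differed in the same direction: the neutrophil list, which includes Cxcl2, summed to 603 CPM in KO cDC2 with 8 of 12 genes detected and Cxcr2, G0s2, Retnlg and Stfa2l1 at 0, and to 3907 CPM in WT cDC2 with 12 of 12 detected. Cxcl2 alone, which macrophages and dendritic cells also express, gave 333 and 3496 CPM of these sums. The neutrophil gate markers, which leave out Cxcl2, Il1r2 and Trem1 of the list, gave 15.3 and 106 CPM. Restricted to cDC2 with 0 UMIs of the neutrophil gate markers, 227 KO and 204 WT cells, the log2 ratio was -1.83 for Clec4d (-2.54 to -1.16) and -1.38 for Clec4e (-2.01 to -0.77). This restriction was chosen after the values were seen. With free RNA subtracted the ratios were -2.51 for Clec4d and -2.37 for Clec4e.

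Clec4d was also lower in KO in other C1q macrophages, with 147 CPM (133 to 161) against 254 CPM (239 to 270) and a log2 ratio of -0.79 (-0.96 to -0.63). Its ratio was below 0 in 7 of the 8 classes, with the interval below 0 in 5, and above 0 in cDC1 (0.28, -0.54 to 1.13); the counts were the same after centring on the median of all genes of each class. In Arg1 Mmp12 macrophages and monocytes, where Clec4d was high, the log2 ratios were -0.35 (-0.46 to -0.25) and -0.40 (-0.65 to -0.16). In cells without neutrophil gate markers the ratio in other C1q macrophages was -0.88 (-1.10 to -0.67), and in Arg1 Mmp12 macrophages -0.27 (-0.40 to -0.13). The neutrophil gate markers, which leave out Cxcl2, summed to 47.1 and 296 CPM in other C1q macrophages and 52.0 and 224 CPM in Arg1 Mmp12 macrophages. Clec4e had log2 ratios of -0.31 (-0.48 to -0.15) in Arg1 Mmp12 macrophages, -0.07 (-0.31 to 0.16) in other C1q macrophages and -0.17 (-0.39 to 0.05) in monocytes, none of them past 1.5-fold. Clec4n had log2 ratios of -0.54 (-0.66 to -0.41) in Arg1 Mmp12 macrophages and -0.53 (-0.75 to -0.32) in cDC2, short of the 1.5-fold mark. Without cells holding neutrophil gate markers the values were -0.68 (-0.85 to -0.51) in Arg1 Mmp12 macrophages, past the mark, and -0.04 (-0.30 to 0.22) in cDC2. Clec4n was also lower in KO in T or NK cells, at 20.2 and 33.2 CPM (-0.72, -1.21 to -0.24).

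Clec12a was higher in KO in each of the 8 classes, with log2 ratios from 0.18 to 1.57 and the interval above 0 in 5. It had 82.9 CPM (70.6 to 96.8) in KO and 50.8 CPM (43.6 to 58.9) in WT Arg1 Mmp12 macrophages, a log2 ratio of 0.71 (0.39 to 1.02). In monocytes it had 138 and 76.8 CPM and a ratio of 0.85 (0.45 to 1.24; 0.57 under stricter gates), and in migratory dendritic cells 52.0 and 17.5 CPM and a ratio of 1.57 (0.68 to 2.5) from 30 and 18 UMIs. The direction was the same after centring in all 8 classes. The 8 classes share 1 library per genotype and are not separate observations, here and in the counts over classes given for other members. Empty droplets held 80.6 CPM of Clec12a in KO and 56.8 CPM in WT, while T or NK cells held 2.75 and 4.86 CPM. The interferon response list was also higher in KO in the same classes, at 1170 to 2328 CPM in KO against 415 to 976 CPM in WT, and its part in the Clec12a values was not tested.

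Clec4a3, at the other end of the run from Clec4d, had ratios above 0 in 7 of the 8 classes and below 0 in Ear2 Retnla macrophages. In Arg1 Mmp12 macrophages it had 114 CPM (99.3 to 130) in KO and 67.8 CPM (59.4 to 77.0) in WT, a log2 ratio of 0.75 (0.48 to 1.02), and in cDC1 26.1 and 12.2 CPM, a ratio of 1.10 (0.32 to 1.94; 1.83 under stricter gates). Clec4a1 in cDC1 had 20.2 and 10.2 CPM (0.99, 0.13 to 1.93; 2.11 under stricter gates), and Clec4n in cDC1 had 37.1 and 13.6 CPM (1.45, 0.74 to 2.23). These cDC1 levels are low beside the macrophage levels of the same genes. Clec4b1 had 60.7 and 22.6 CPM in monocytes (1.42, 0.75 to 2.11) and 75.5 and 50.02 CPM in cDC2 (0.59, 0.23 to 0.96; 0.58 after doublet removal, under the mark). Clec4a2 had no ratio past 1.5-fold in any of the 7 larger classes where it was compared.

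**Figure D4:**
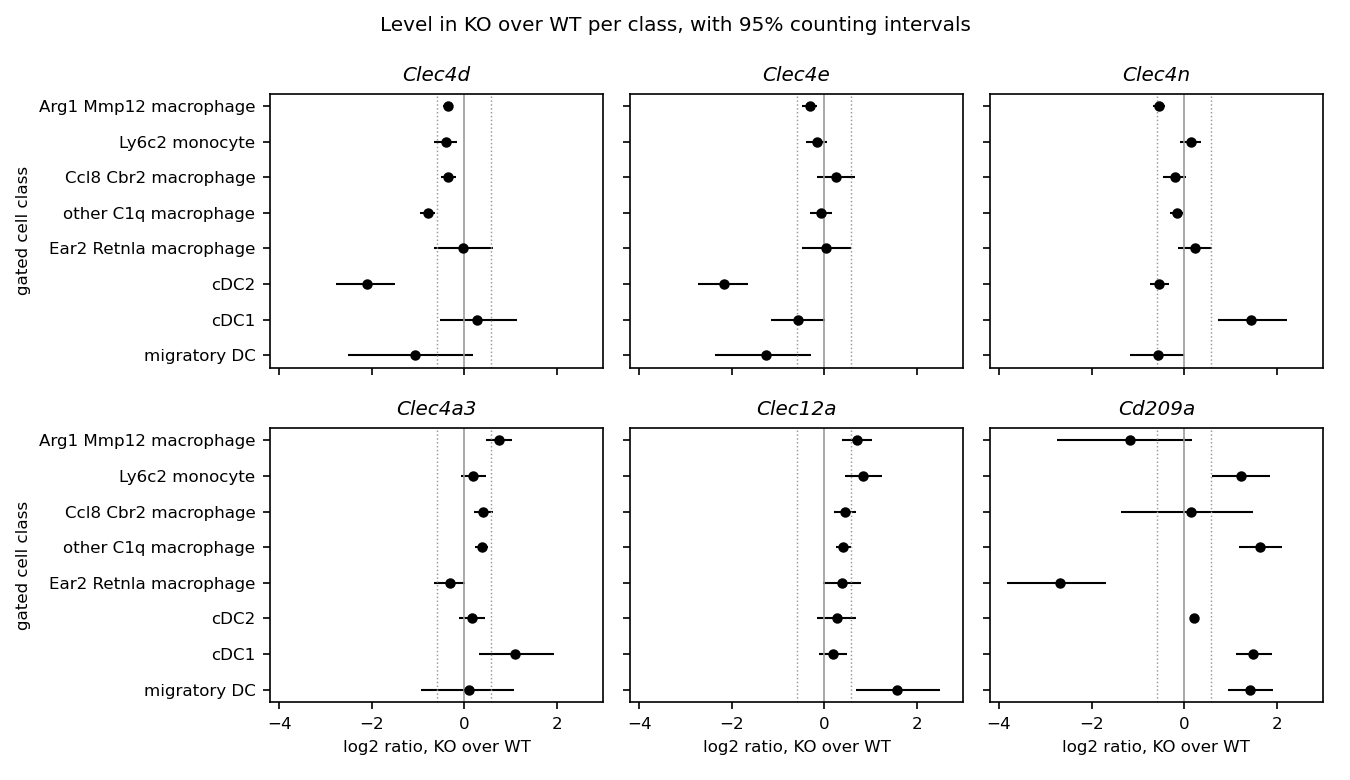
Log2 ratio of the level in KO over WT for 6 members in the 8 classes with at least 50 cells in each library; bars are exact 95% counting intervals, the solid line marks 0 and the dotted lines 1.5-fold. Clec12a lies above 0 in all 8 classes, Clec4d below 0 in 7, and the Cd209a values scatter on both sides outside cDC2.

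The dendritic cell lectins were close in the class where they were high. In cDC2 the log2 ratio was 0.22 for Cd209a (0.12 to 0.32), 0.24 for Clec10a (0.11 to 0.38), 0.41 for Cd209c (0.01 to 0.81) and -0.41 for Cd209d (-0.69 to -0.14). In cDC1, Clec9a had a ratio of 0.34 (0.07 to 0.61). None of these reached 1.5-fold. Outside cDC2, Cd209a and Clec10a were at levels where a few cells counted: Cd209a had 132 and 46.8 CPM in cDC1 (1.49, 1.11 to 1.89; 32 of 230 KO cells and 12 of 135 WT cells), 65.8 and 28.1 CPM in monocytes (1.23, 0.61 to 1.86; 6 and 18 cells; 1.93 under stricter gates) and 43.9 and 14.1 CPM in other C1q macrophages (1.64, 1.18 to 2.11; 17 and 16 cells). In monocytes 1 KO cell held 37.3% of the Cd209a UMIs, and without the top cell of each library the ratio was 0.79 (0.05 to 1.52). In other C1q macrophages 1 KO cell held 53.2% of the UMIs, and without the top cell of each library the ratio was 1.05 (0.45 to 1.67). After doublet removal it was 0.61 in other C1q macrophages. In T or NK cells, as background, 2 of 14 members were higher and 5 lower in KO, with 16.2% and 6.2% of all genes, and in B cells 2 of 6 were higher and 2 lower, with 19.7% and 24%. Cd209a was higher in KO in T or NK cells, which lack it, at 64.5 and 36.5 CPM, and in empty droplets, at 116 and 69.5 CPM. The cDC2 marker list summed to 4637 CPM in KO and 2062 CPM in WT monocytes, 5518 and 3563 CPM in other C1q macrophages and 9897 and 10157 CPM in cDC1, and its part in these values was not tested.

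Clec10a had 62.3 CPM in KO and 26.4 CPM in WT cDC1 (1.24, 0.72 to 1.78; 0.16 under stricter gates) and 65.8 and 35.7 CPM in monocytes (0.88, 0.30 to 1.47). In migratory dendritic cells it was lower in KO, with 52.0 CPM (35.1 to 74.2, 12 cells) against 151.5 CPM (129 to 177, 30 cells) and a ratio of -1.54 (-2.16 to -0.97; -2.63 under stricter gates). Cd209a in the same class went the other way, with 154 and 57.3 CPM (1.43, 0.94 to 1.93), but 49.4% of its KO UMIs were in 1 cell, and the ratio was 0.38 under stricter gates. Clec4e in migratory dendritic cells had 19.0 and 45.6 CPM (-1.26, -2.36 to -0.29), but 72.7% of its KO UMIs were in 1 cell, and the ratio was 2.10 under stricter gates and -0.48 at a minimum of 500 UMIs. In Ear2 Retnla macrophages Cd209a had 10 UMIs in 5 KO cells and 49 UMIs in 6 WT cells (-2.68, -3.83 to -1.68; -4.26 with free RNA subtracted), of which 60% and 57.1% were in 1 cell each.

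Clec2d had 64.9 CPM in KO and 35.9 CPM in WT cDC2 (0.85, 0.44 to 1.27; 0.56 after thinning), and its ratio was above 0 in 7 of the 8 classes. Clec4g had 8 and 27 UMIs in cDC2 (-1.21, -2.56 to -0.03), and the ratio was -0.44 under stricter gates. Clec5a had 21.9 and 33.5 CPM in Ccl8 Cbr2 macrophages (-0.61, -1.23 to -0.04), close to the 1.5-fold mark, and the ratio was -0.56 after centring. Cd209d had 0 and 22 UMIs in other C1q macrophages, but 77.3% of the WT UMIs were in 1 cell, and 5 WT UMIs remained without it.

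In pDC, with 19 KO cells, 4 of 7 members were higher and 2 lower, where 11.3% of all genes were higher and 24.8% lower. Clec2d had 252 and 106 CPM (1.252, 0.49 to 1.98), Clec2i 131 and 45.1 CPM (1.54, 0.41 to 2.62), Clec9a 141 and 58.6 CPM (1.27, 0.22 to 2.26) and Clec12a 273 and 158 CPM (0.79, 0.09 to 1.45). Cd209d was lower, from 3 and 53 UMIs (-1.98, -4.30 to -0.35). With the top cell of each library left out, the intervals of Clec2i (1.07, -0.34 to 2.34) and Clec12a (0.72, -0.03 to 1.42) included 0. Those of Clec2d (1.24, 0.38 to 2.05) and Clec9a (1.23, 0.04 to 2.34) did not. In neutrophils, with 28 KO cells, 5 of 11 members were higher and 3 lower, but 38.9% of all genes were higher and 17.5% lower. Cd209a had 517 and 67.7 CPM (2.93, 2.30 to 3.53), all of its KO UMIs from 1 cell. Clec4e had 800 CPM (595 to 1051) in KO and 1337 CPM (1272 to 1403) in WT neutrophils (-0.74, -1.17 to -0.34). Before thinning, it had UMIs in 21 of 28 KO and 397 of 530 WT neutrophils. Clec4n had 611 and 374 CPM (0.71, 0.20 to 1.18), and Clec4a2 had 188 and 44.6 CPM from 12 and 54 UMIs (2.08, 1.04 to 2.998). Clec4d differed by less than counting error (-0.11, -0.42 to 0.19). An estimated 26.1% of the UMIs of KO neutrophils and 7.30% of those of WT neutrophils were free RNA, and its part in these values was not tested.

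The signalling genes behind these receptors were read in other C1q macrophages, the class with the most cells in KO. There, 7.58% of all genes were higher and 8.39% lower, and the counts of the lists below stand beside these shares. Of 13 genes for adaptors and kinases of activating receptors, 12 were measured, 2 were higher and 1 lower. Malt1 had 57.7 and 27.2 CPM (1.08, 0.73 to 1.44) and Prkcd, the kinase that links Syk to Card9, 229 and 138 CPM (0.73, 0.57 to 0.90). Card9 had 9.91 and 16.8 CPM (-0.76, -1.45 to -0.11), and Bcl10, below the 1.5-fold mark, 59.8 and 78.5 CPM (-0.39, -0.67 to -0.12). Malt1 went the other way in Arg1 Mmp12 macrophages, with 54.1 and 104 CPM (-0.94, -1.27 to -0.62), where Bcl10 had 59.2 and 103 CPM (-0.79, -1.11 to -0.49), and in monocytes, with 69.7 and 114 CPM (-0.71, -1.18 to -0.26). These Malt1 and Bcl10 values outside other C1q macrophages were chosen after they were seen. None of the 3 phosphatase genes that bind inhibitory motifs passed 1.5-fold, with log2 ratios of 0.24 for Ptpn6 (0.09 to 0.39), 0.13 for Inpp5d (-0.08 to 0.33) and -0.11 for Ptpn11 (-0.51 to 0.28).

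Of 7 cytokine and chemokine genes known downstream of Card9, 4 were measured in other C1q macrophages, 1 was higher and 3 lower. Il1b had 1087 and 340 CPM (1.68, 1.59 to 1.77), while Cxcl2, a neutrophil-attracting chemokine, had 1024 and 3348 CPM (-1.71, -1.77 to -1.65), Tnf 81.8 and 202 CPM (-1.30, -1.52 to -1.09) and Il10 7.43 and 22.1 CPM (-1.57, -2.33 to -0.88). Arg1 Mmp12 macrophages had the highest Clec4d and Clec4n among macrophages. There, 0 of 6 measured cytokine and chemokine genes were higher and 4 lower, with 12.3% of all genes higher and 8.04% lower. In cDC2, 0 of 5 were higher and 4 lower, with 8.3% and 9.35% of all genes. The counts higher and lower were 0 and 3 of 4 in monocytes, 1 and 3 of 4 in Ccl8 Cbr2 macrophages and 1 and 2 of 4 in cDC1. They were 1 and 1 of 4 in migratory dendritic cells and 1 and 0 of 3 in Ear2 Retnla macrophages. In pDC they were 2 and 0 of 3, and in neutrophils 0 and 2 of 4. The shares of all genes in these classes are given above. Cxcl2 had 333 CPM in KO and 3496 CPM in WT cDC2 (-3.39, -3.52 to -3.27), beside the lower Clec4d and Clec4e there. Among 26 other genes with a C-type lectin domain but other names, 13 were measured in other C1q macrophages, 4 were higher and 1 lower. Klrb1b, the receptor for Clec2d, had 15.9 and 5.83 CPM (1.45, 0.70 to 2.23), Mgl2, the closest relative of Clec10a, 127 and 46.9 CPM (1.44, 1.19 to 1.70), and Cd93 139 and 232 CPM (-0.73, -0.91 to -0.56). Klra17 had 11 and 23 UMIs and did not differ beyond counting error (-0.52, -1.71 to 0.57).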

How the data were processed

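The deposited files hold raw UMI counts of every listed barcode for 1 RNA library per genotype, and per the file headers the authors ran Cell Ranger 3.1.0. The submitters' processing notes list R 3.6.1, Seurat 3.2.0 and mm10 without saying what each did. How reads were aligned: not given in the sources used here. The T cell receptor libraries were not used. Totals were 24385843 UMIs in KO and 35152477 UMIs in WT, and 37 members were found by symbol.

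Cells passed at 1000 UMIs, 500 genes and at most 10% mitochondrial UMIs. Classes were gated on summed UMIs of marker genes without members. Gate minimums were set after the data were seen. With all minimums multiplied by 0.75 or by 1.25, 41 of 248 KO and 47 of 317 WT cDC2 left their class, for example. The same held for 15 of 97 KO and 14 of 56 WT Ear2 Retnla macrophages. Cells with markers of several lineages were left out (103 KO and 138 WT cells), and no doublet caller was used in the main values. The members and lists were chosen with earlier results of these data known. Every measured member is named, those reaching 100 CPM in a class of at least 50 cells are described in full, and ratios past 1.5-fold whose interval leaves out 0 are given in full, with up to 4 genes per pathway list.

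UMIs were summed per class and library and divided by the class total (CPM). Intervals are exact Poisson for levels, Clopper-Pearson for shares and exact conditional binomial for log2 ratios of KO over WT, all at 95%. Reads shared between close paralogs could not be separated. Cells were not treated as replicates. Python 3.11.15, numpy 2.4.6, scipy 1.17.1, pandas 2.3.3, scikit-learn 1.9.0 and matplotlib 3.10.9 were used. The ratio interval and the 1.5-fold call were tested on simulated Poisson counts modelled on other C1q macrophages.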

Additional observations from a re-analysis of the deposited data

Results flagged for a closer look

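Cd209a and Clec10a had ratios of opposite sign in different classes, each with a counting interval that left out 0. For Cd209a the log2 ratio of KO over WT was 1.49 in cDC1, 1.43 in migratory dendritic cells, 1.23 in monocytes and 1.64 in other C1q macrophages, against -2.68 in Ear2 Retnla macrophages. For Clec10a it was 1.24 in cDC1 and 0.88 in monocytes, against -1.54 in migratory dendritic cells. The differences between classes were not tested, since each genotype is 1 library. A single cell held 53.2% of the KO UMIs of Cd209a in other C1q macrophages, 49.4% in migratory dendritic cells, 37.3% in monocytes and 60% in Ear2 Retnla macrophages.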

How the results depend on the processing

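No paired analysis was possible because each genotype is 1 pooled library, and no replicate could be left out. Over the planned settings, the number of member and class pairs at least 1.5-fold higher in KO was 16 to 21, against 18 in the main analysis, and the number lower was 9 to 13, against 12. The number of members with the same leading class in both libraries was 7 to 10, against 9, and a minimum of 50 UMIs left 19 of the 26 members. Of 241 values for the 25 pairs whose interval left out 0, 223 stayed within the counting interval, 17 moved out of it and 1 reversed: Clec4e in migratory dendritic cells had a log2 ratio of 2.10 under stricter gates, against -1.26. The cause was not tested. Cd209a was the most often moved. In other C1q macrophages it was 0.61 after doublet removal, 0.63 under stricter gates and 0.67 after thinning, against 1.64, and in migratory dendritic cells it was 0.38 under stricter gates, against 1.43. Clec10a in cDC1 was 0.16 under stricter gates, against 1.24. Clec4e in cDC2 was -2.78 after thinning. Leaving out the top cell of a gene and leaving out cells with neutrophil gate markers were chosen after seeing the data. Depth limits values for pDC and neutrophils, with 19 and 28 KO cells.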
